A study of Mus musculus with 56 samples.

Results

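The NRF2 antioxidant genes described here, chosen by name as Nfe2l2, Nqo1, Gclc, Gclm, Hmox1, Srxn1, Txnrd1, Slc7a11 and Gpx2, were followed in mouse livers that lost the microRNA miR-122. They are 9 of the 21888 gene symbols in the RNA-seq table, and each has 1 row there with a value in all 14 livers. All mice are of the 129Sv/J background. The floxed mice carry LoxP sites around miR-122, the dominant microRNA of hepatocytes, and were either left uninjected (day 0, n = 3) or given a tail vein injection of rAAV-Cre and harvested at day 21 (n = 3), day 45 (n = 3), day 100 (n = 1) or day 200 (n = 1). Cre in this vector is driven by the Ef1a promoter, which is active in many cell types. The day 0 mice received no vector, so an effect of the vector or of Cre and an effect of losing miR-122 cannot be told apart. A further 3 livers came from germline miR-122 knockout mice, a line that never had miR-122, so the colony and the deletion cannot be told apart either. Ages are not given in the labels. Each library is 1 animal.

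NRF2, encoded by Nfe2l2, is a transcription factor that the adaptor protein KEAP1 normally hands over for degradation. Oxidants and electrophiles modify KEAP1, NRF2 then accumulates in the nucleus, pairs with a small MAF protein and binds antioxidant response elements near its target genes. Its targets make and recycle glutathione and thioredoxin, reduce quinones, break down heme and conjugate foreign compounds, and the liver relies on them when it handles drugs and bile. Much of NRF2 control acts on the protein, which was not measured, and an mRNA level does not show how much NRF2 protein is active.

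The core of the antioxidant response element, TGACNNNGC, was looked for on both strands of RefSeq promoters of the GRCm38.p6 build, from 250 bases before to 50 bases after each annotated start. Of the 9 genes, 7 have a promoter in that table, and Gclc and Hmox1 do not. The core lay in 4 of these 7 (Nfe2l2, Gclm, Txnrd1 and Srxn1) and not in the windows of Nqo1, Slc7a11 and Gpx2. It was held by 12.4% of all 32851 promoters and by at least 1 promoter of 14.0% of 27025 gene symbols, so it is a common string. The 3 matches upstream of a start are shown because they are the letters a reader would look for beside these genes. Each is printed along the strand of its gene with the core in capitals, which for Nfe2l2 is the minus strand. In Nfe2l2 it lies 240 bases upstream (chr2:75704884-75704913, gene on the minus strand). In Gclm it lies 134 bases upstream (chr3:122245413-122245442, plus strand), and in the second of 3 annotated Txnrd1 starts 92 bases upstream (chr10:82859104-82859133, plus strand).
Nfe2l2: tcagcccaccTGACTCCGCcatgccccgga
Gclm: gctcccgggcGCACCGTCAactctcacgag
Txnrd1: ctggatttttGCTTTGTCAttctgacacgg
A match is a description of the letters and was not tested as a binding site.

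Small RNA libraries gave the check of the targeted microRNA. The miR-122 share of the listed microRNA signal was 73.3%, 59.2% and 66.7% in the 3 uninjected livers, 12.5%, 13.2% and 8.22% at day 21 and 0.908%, 0.383% and 1.23% at day 45. It was 4.46% at day 100 and 19.1% at day 200. No small RNA library of the germline knockout was used here. None of the 9 genes is in the study's list of predicted miR-122 targets.

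The values are FPKM, sequenced fragments scaled by the length of the transcript and the size of the library. From the smallest steps between values, the libraries rest on about 23700000 to 59200000 fragments, with the knockout lowest at 23700000 to 29500000. Sex is not in the labels. In 4 livers Xist was at most 0.133 FPKM and Y-linked transcripts summed to at least 51.1 FPKM. These are day 0 replicate B, day 21 replicate C, day 45 replicate C and knockout replicate C, called Y livers here. The other 10 livers, days 100 and 200 included, had at least 12.6 FPKM of Xist and at most 0.061 FPKM of Y-linked transcripts. Knockout replicates A and B also stood apart in transcript length. Against day 0, transcripts longer than 8000 bases were lower than those under 1000 bases by a median log2 difference of -1.31 in A and -0.81 in B, compared with -0.43 to 0.54 in the other 12 livers. The 10 hepatocyte markers, of which albumin (Alb) is listed at 0 in all livers, summed to 29228 to 33158 FPKM at day 0 and 25989 to 33253 at day 21. They summed to 20373 to 26797 at day 45, 15423 to 23255 at days 100 and 200 and 30464 to 37374 in the knockout. Of these markers, Trf was listed at 0 except in day 0 B, day 21 C and knockout C, at 6279, 7843 and 12616 FPKM. Serpina1a differed from day 0 by log2 10.74 in the knockout (SE 1.64). The sums therefore depend on which livers list these genes. None of the 9 tested markers was called at day 45, where the SE of Trf was 4.28. At day 45, where 23.7% of all tested genes were called higher, 9 of 10 stellate and fibroblast, 7 of 8 tested lymphocyte, 3 of 8 endothelial and 3 of 10 pericentral hepatocyte markers were called higher and 1 pericentral marker lower. Pericentral markers summed to 2051 to 2636 FPKM at day 0, 3345 to 3794 at day 21 and 4113 to 4215 at day 45, and endothelial markers to 90.3 to 156, 156 to 177 and 187 to 190. Macrophage and cholangiocyte values are given beside Hmox1 and Gpx2, and the part of these shifts in the members' values was not tested. None of 5 tested erythroid markers was called in any comparison with day 0. In such bulk samples fewer cells of a type and less RNA per cell cannot be told apart.

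Changes were tested with limma on log2(FPKM + 1) in 1 fit of 5 groups, with days 100 and 200 joined, and fold changes below are on that scale with their standard error (SE). Adjusted p-values are Benjamini-Hochberg over the 11354 genes whose mean over the livers reached 1 FPKM, and a gene was called at 0.05. All comparisons with day 0 share the same 3 uninjected livers. Slc7a11 fell below the filter and was not tested. Gpx2 passed it only through the groups where it was high, so a difference was built into its inclusion and its call supports nothing by itself.

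At day 45, 6 of the 9 genes rose against the uninjected livers, namely Nqo1, Gpx2, Srxn1, Hmox1, Nfe2l2 and Txnrd1. None fell. The background is large, since 26.7% of all tested genes were called at that time and 23.7% were called higher. At day 21, when 7.62% of tested genes were called and 6.2% higher, 2 of the 9 passed (Hmox1 and Nfe2l2). At days 100 and 200, when 31.6% of tested genes were called and 28.4% higher, 3 passed (Gpx2, Nqo1 and Hmox1). In the germline knockout, when 33.8% were called and 19.3% higher, 2 passed (Hmox1 and Nqo1). Without day 0 replicate A or B none passed at day 21, where 2.75% and 2.23% of all tested genes still did. In the knockout comparison 4 passed without knockout replicate C (Hmox1 and Nqo1 higher, Gclc and Nfe2l2 lower), in a fit that called 62.4% of all tested genes, and 1 without knockout replicate A or B, beside 17.5% and 14.4%. Counting all 9 genes without a test, every liver of the later group was above every uninjected liver for 7 genes at day 21, 8 at day 45, 7 at days 100 and 200 and 3 in the knockout, beside 25.2%, 40.5%, 52.9% and 21.1% of all tested genes. The median log2 fold change over the 8 tested members was 0.78 for day 21, 1.47 for day 45, 0.97 for the late livers and 0.26 for the knockout, beside medians over all tested genes of 0.06, 0.20, 0.31 and 0.02.

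**Figure D1:**
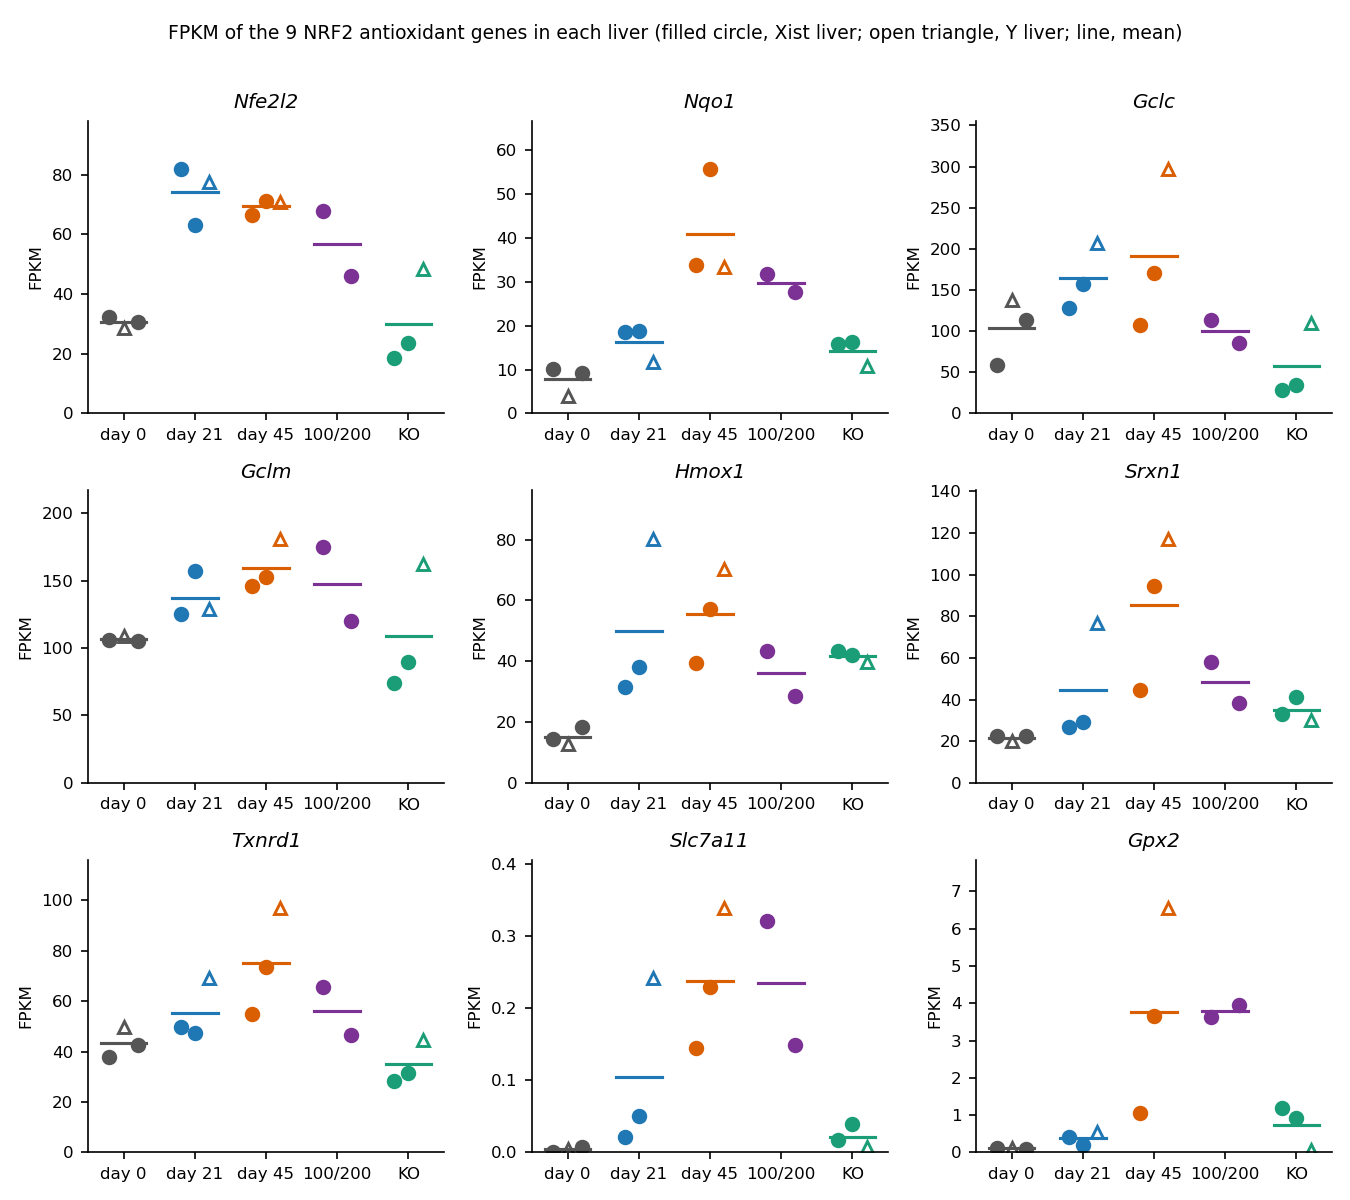
FPKM (linear axis from 0) of each of the 9 genes in each liver, grouped as day 0, 21, 45, 100 and 200, and germline knockout (KO). Filled circles are livers with Xist, open triangles Y livers and lines group means; Nfe2l2 is at 28.7 to 32.4 FPKM at day 0 and at 63.1 to 81.8 FPKM at day 21, while Gpx2 is at or under 0.118 FPKM at day 0 and between 1.06 and 6.55 FPKM at day 45.

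Nfe2l2 (mm9 chr2:75513575-75542698) encodes NRF2 itself. Its level was 32.4, 28.7 and 30.8 FPKM in the 3 uninjected livers, 81.8, 63.1 and 77.6 at day 21, 66.7, 71.1 and 70.8 at day 45, 67.8 at day 100, 46.0 at day 200 and 18.5, 23.4 and 48.5 in the knockout. Every liver taken after injection was above every uninjected liver, and the knockout livers fell on both sides of them. Nfe2l2 rose to 2.42 times the day 0 mean at day 21 (74.2 ± 9.83 against 30.6 ± 1.85 FPKM, SD, n = 3 each; log2 fold change 1.24, SE 0.28, limma adjusted p = 0.0196). At day 45 the log2 fold change was 1.16 (SE 0.28, limma adjusted p = 0.00894), and the level did not differ detectably from day 21 (log2 difference -0.08, 95% interval -0.69 to 0.52). At days 100 and 200 it was 0.85 (SE 0.31, limma adjusted p = 0.0552), just short of the threshold. It was called with only the groups compared, with sex as a term, in livers with Xist alone and without knockout replicate A or C (limma adjusted p 0.00216 to 0.0304), as well as with C as the one knockout liver. With libraries centred on their median the change was 0.51 (limma adjusted p = 0.24). The day 21 call was lost without any 1 of the 3 day 0 livers or without day 21 replicate A or C (adjusted p 0.0507 to 0.0768).

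Nqo1 (mm9 chr8:109912124-109927105) encodes the quinone reductase NAD(P)H quinone dehydrogenase, a widely used readout of NRF2 activity. Uninjected livers held 10.0, 4.05 and 9.23 FPKM, and day 21 livers 18.5, 18.8 and 11.7. The level was 33.9, 55.6 and 33.3 at day 45, 31.8 at day 100, 27.7 at day 200 and 15.9, 16.2 and 10.7 in the knockout. All injected and all knockout livers lay above all uninjected ones, and the day 45 livers also lay above all day 21 livers. Nqo1 rose at day 45 to 5.27 times the day 0 mean (40.9 ± 12.7 against 7.77 ± 3.25 FPKM; log2 fold change 2.30, SE 0.31, limma adjusted p = 0.000571). It was still up at days 100 and 200 (1.89, SE 0.35, limma adjusted p = 0.00149). At day 21 the change was 1.04 (SE 0.31, limma adjusted p = 0.0638), and the step from day 21 to day 45 was 1.26 (SE 0.31, limma adjusted p = 0.103). The Y livers were the lowest of their groups at days 0, 21 and 45 and in the knockout (4.05, 11.7, 33.3 and 10.7 FPKM). Among livers with Xist alone, a setting added after the data were seen, the changes were 0.89 at day 21 (limma adjusted p = 0.0411) and 2.07 at day 45 (limma adjusted p = 0.000815).

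Glutamate-cysteine ligase makes the first and limiting bond of glutathione. Gclc (mm9 chr9:77602616-77641458) encodes its catalytic subunit and Gclm (mm9 chr3:121948509-121969566) its modifier. Gclc was at 58.7, 138 and 114 FPKM in uninjected livers, 128, 157 and 208 at day 21, 107, 171 and 297 at day 45, 114 at day 100, 85.2 at day 200 and 28.9, 34.6 and 109.5 in the knockout. The groups overlapped in every comparison with day 0. Gclc was not called at day 45 (log2 fold change 0.85, 95% interval -0.23 to 1.92, limma adjusted p = 0.245), and a change of either sign is within reach at days 100 and 200 (0.02, 95% interval -1.18 to 1.21). In the knockout the change was -1.01 (SE 0.49, limma adjusted p = 0.125), and it was called with sex as a term (-1.01, limma adjusted p = 0.0231), in livers with Xist alone (-1.35, limma adjusted p = 0.00634), with the replicate block (limma adjusted p = 0.0421) and without knockout replicate C. The Y livers were the highest of their groups at days 0, 21 and 45 and in the knockout, and within them Gclc went from 138 to 208 and 297 FPKM, with 1 liver at each time and no test. Gclm was steady in uninjected livers, at 106, 109 and 105 FPKM. It was 126, 157 and 129 at day 21, 146, 152 and 181 at day 45, 175 at day 100, 119.9 at day 200 and 74.4, 89.5 and 162 in the knockout. All injected livers were above all uninjected ones, but the rise was small (day 45, 159.7 ± 18.7 against 107 ± 2.13 FPKM; log2 fold change 0.57, SE 0.25, limma adjusted p = 0.116) and was not called, although it was when the fit left out knockout replicate C (adjusted p = 0.0142), used only the groups compared (adjusted p = 0.0143) or kept replicate C as the one knockout liver.

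Slc7a11 (mm9 chr3:50168857-50247535) encodes the cystine transporter xCT, which brings in the cysteine for glutathione, and was nearly silent. It was listed at 0, 0.005 and 0.008 FPKM in uninjected livers, 0.021, 0.051 and 0.242 at day 21, 0.144, 0.229 and 0.338 at day 45, 0.32 at day 100, 0.149 at day 200 and 0.017, 0.039 and 0.008 in the knockout. All injected livers were above all uninjected ones, yet no liver reached 0.34 FPKM, so no fold is given. With the filter on low values removed, its log2(FPKM + 1) differed from day 0 by 0.30 at day 45 (SE 0.08, limma adjusted p = 0.0172) and by 0.29 at days 100 and 200 (SE 0.09, limma adjusted p = 0.0219).

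Gpx2 (mm9 chr12:77893321-77896541) encodes a glutathione peroxidase best known from gut epithelium. Its level was 0.113, 0.118 and 0.097 FPKM in uninjected livers, equal to about 4.3 to 5.8 fragments per library. It was 0.406, 0.206 and 0.542 FPKM at day 21, 1.06, 3.66 and 6.55 at day 45, 3.64 at day 100, 3.95 at day 200 and 1.19, 0.935 and 0.074 in the knockout. Every injected liver was above every uninjected one, and knockout replicate C, at about 1.9 fragments, lay below them all. The day 45 mean was 34.3 times the day 0 mean (3.75 ± 2.75 against 0.109 ± 0.011 FPKM), and 21.6 times without day 45 replicate C. On the log2(FPKM + 1) scale, which shrinks changes of low genes, the difference was 1.91 (SE 0.38, limma adjusted p = 0.00333) at day 45 and 2.11 (SE 0.42, limma adjusted p = 0.00258) at days 100 and 200. With a pseudocount of 0.1 these became 3.87 and 4.22. The bile duct keratin Krt19 was 1.01 to 2.19 FPKM in uninjected livers, 2.33, 1.64 and 1.83 at day 21, 5.78, 17.5 and 12.3 at day 45, 15.0 and 19.4 at days 100 and 200 and 23.7, 25.4 and 3.35 in the knockout. The summed FPKM of all 10 cholangiocyte markers ranged from 63.1 to 86.9 at day 0, from 161 to 224 at day 21, from 454 to 1409 at day 45, from 1985 to 3026 at days 100 and 200 and from 601 to 868 in the knockout, and none of the 10 was at 0 in all livers. At day 45, 7 of the 9 tested markers were called higher. The part of bile duct transcripts in the Gpx2 and Nqo1 values was not tested.

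Srxn1 and Txnrd1 belong to the thioredoxin branch, where sulfiredoxin repairs over-oxidised peroxiredoxins and thioredoxin reductase recharges thioredoxin. Srxn1 (mm9 chr2:151931465-151937089) was tightly grouped at 22.5, 20.0 and 22.4 FPKM before injection. It was 27.1, 29.4 and 76.8 at day 21, 44.5, 94.3 and 117 at day 45, 58.2 at day 100, 38.4 at day 200 and 33.2, 41.4 and 30.4 in the knockout. All injected and all knockout livers exceeded all uninjected ones. The day 45 mean was 3.95 times that of day 0 (85.3 ± 37.2 against 21.6 ± 1.42 FPKM; log2 fold change 1.83, SE 0.39, limma adjusted p = 0.00509). At day 21 the change was 0.84 (SE 0.39, limma adjusted p = 0.239) with the Y liver at 76.8 FPKM, and among livers with Xist it was 0.32 (limma adjusted p = 0.549). The changes of 1.10 at days 100 and 200 (SE 0.44, limma adjusted p = 0.0773) and 0.66 in the knockout (SE 0.39, limma adjusted p = 0.199) did not pass, although 5 alternative fits called the former. Txnrd1 (mm9 chr10:82296695-82360469) was at 37.7, 49.7 and 42.7 FPKM in uninjected livers, 49.7, 47.2 and 69.1 at day 21, 55.0, 73.5 and 96.9 at day 45, 65.6 at day 100, 46.6 at day 200 and 28.5, 31.7 and 44.7 in the knockout. The day 45 livers and the day 100 liver lay above all uninjected ones, and the other groups overlapped them. The day 45 change was 1.73 times (log2 fold change 0.75, SE 0.25, limma adjusted p = 0.0395). This call was lost with libraries centred on their median (0.51, adjusted p = 0.144), with the transcript length trend removed (0.43, adjusted p = 0.175), and without any 1 of the 3 day 0 livers, day 21 replicate A, or day 45 replicate B or C (adjusted p 0.0506 to 0.156).

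Hmox1 (mm9 chr8:77617516-77624492) encodes heme oxygenase 1, which opens heme to biliverdin, iron and carbon monoxide. Uninjected livers had 14.3, 12.9 and 18.5 FPKM. The level was 31.5, 38.0 and 80.3 at day 21, 39.5, 57.1 and 70.4 at day 45, 43.4 at day 100, 28.6 at day 200 and 43.5, 42.0 and 39.7 in the knockout. All injected and knockout livers were above all uninjected ones, and Hmox1 alone of the 8 tested genes was called in each of the 4 comparisons with day 0. The log2 fold changes were 1.55 at day 21 (SE 0.31, limma adjusted p = 0.0129), 1.78 at day 45 (SE 0.31, limma adjusted p = 0.00183), 1.18 at days 100 and 200 (SE 0.35, limma adjusted p = 0.0224) and 1.41 in the knockout (SE 0.31, limma adjusted p = 0.0066). The day 21 call was lost without day 0 replicate A or B (adjusted p = 0.053 and 0.0616). The call at days 100 and 200 was lost without day 0 replicate A or B or the day 100 liver (adjusted p 0.0578 to 0.231), with centred libraries (0.84, adjusted p = 0.103) and with the length trend removed (0.76, adjusted p = 0.108). Macrophages are rich in this enzyme, and their 13 listed markers, none at 0 in all livers, summed to 264 to 478 FPKM at day 0, 658 to 837 at day 21, 933 to 1049 at day 45, 953 to 1115 at days 100 and 200 and 346 to 910 in the knockout. At day 45, 12 of these 13 markers were called higher. The part of macrophage transcripts in the Hmox1 values was not tested. With replicate C as the one knockout liver the Hmox1 change was 1.34 and not called (adjusted p = 0.128).

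**Figure D2:**
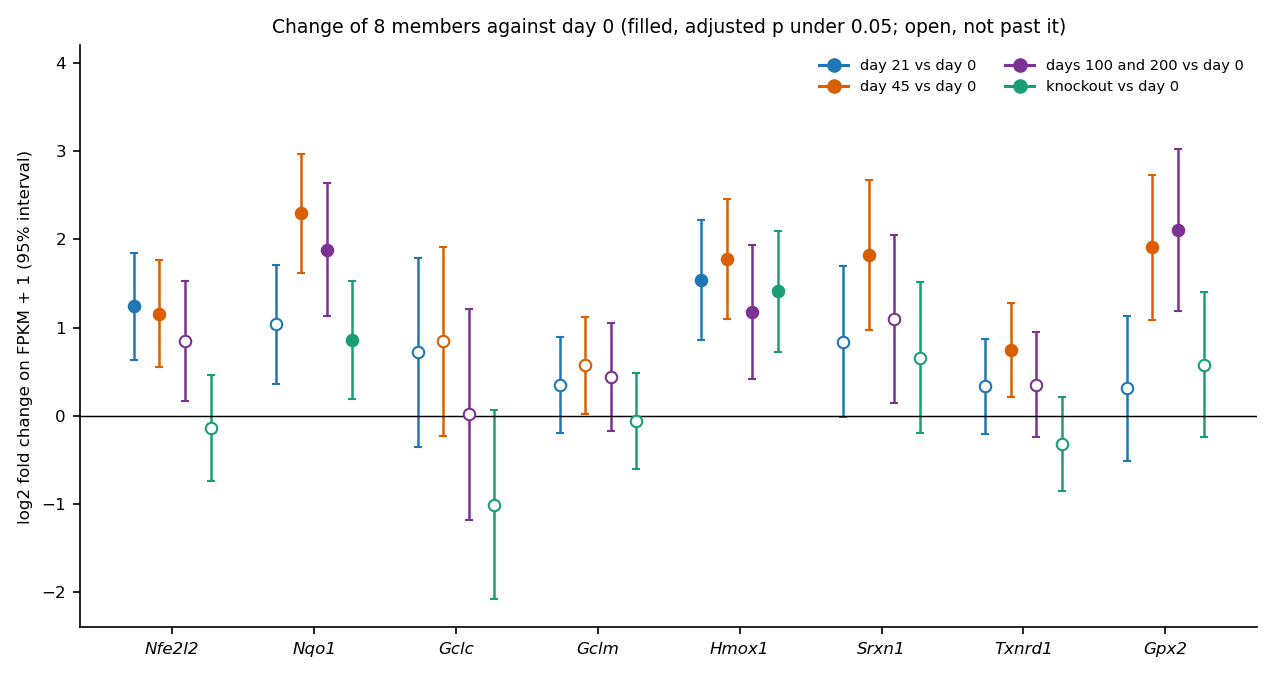
Log2 fold change on FPKM + 1 against the 3 uninjected livers for the 8 tested genes, with 95% intervals from the fit; filled points passed an adjusted p of 0.05. Nqo1 is at 2.30 at day 45, Hmox1 is filled in all 4 comparisons, and Gclc spans 0 in all of them.

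Nfe2l2 and Hmox1 were called at day 21, and their day 45 minus day 21 differences were -0.08 (SE 0.28) and 0.24 (SE 0.31). For Nqo1 and Gpx2, 2 of the 9 genes, the 3 livers of day 45 lay above the 3 of day 21, beside 27.9% of all tested genes. None of the 8 tested members was called between day 45 and day 21, where 0.273% of all genes were, nor between days 100 and 200 and day 45, where 0.22% were. At an unadjusted limma p under 0.05, 3 passed between day 45 and day 21 (Gpx2, Nqo1 and Srxn1) and 0 between days 100 and 200 and day 45, beside 16% and 7.84% of all tested genes. From day 45 to days 100 and 200 the differences of 7 of the 8 were below 0, with Gpx2 at 0.20 (SE 0.42), and only for Nqo1 did both late livers (31.8 and 27.7 FPKM) lie below all 3 day 45 livers, as they did for 7.59% of all tested genes. The day 200 liver was lower than the day 100 liver in 8 of the 9 genes, Gpx2 excepted, as it was in 65% of all tested genes, with 1 liver at each time.

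Which liver led its group was counted over the 9 genes but not over all tested genes. The Y liver, replicate C, was the highest of its group for 6 of the 9 genes at day 21 and for 7 at day 45, and in the knockout for 4, whereas at day 0 the Y liver, replicate B, led for 4 and was within 1.21 times the next liver in each. With sex added as a term to the fit, a setting chosen after the data were seen, the same 6 genes were called at day 45 and 3 at day 21 (Nqo1 besides Hmox1 and Nfe2l2), where 29.1% and 8.93% of all tested genes were called. In the livers with Xist alone the calls were 3 at day 21, 6 at day 45, 5 in the late pair and 5 in the knockout (Hmox1, Nqo1 and Gpx2 higher, Gclc and Nfe2l2 lower), beside 5.65%, 29.4%, 39.6% and 57.4% of all tested genes.

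**Figure D3:**
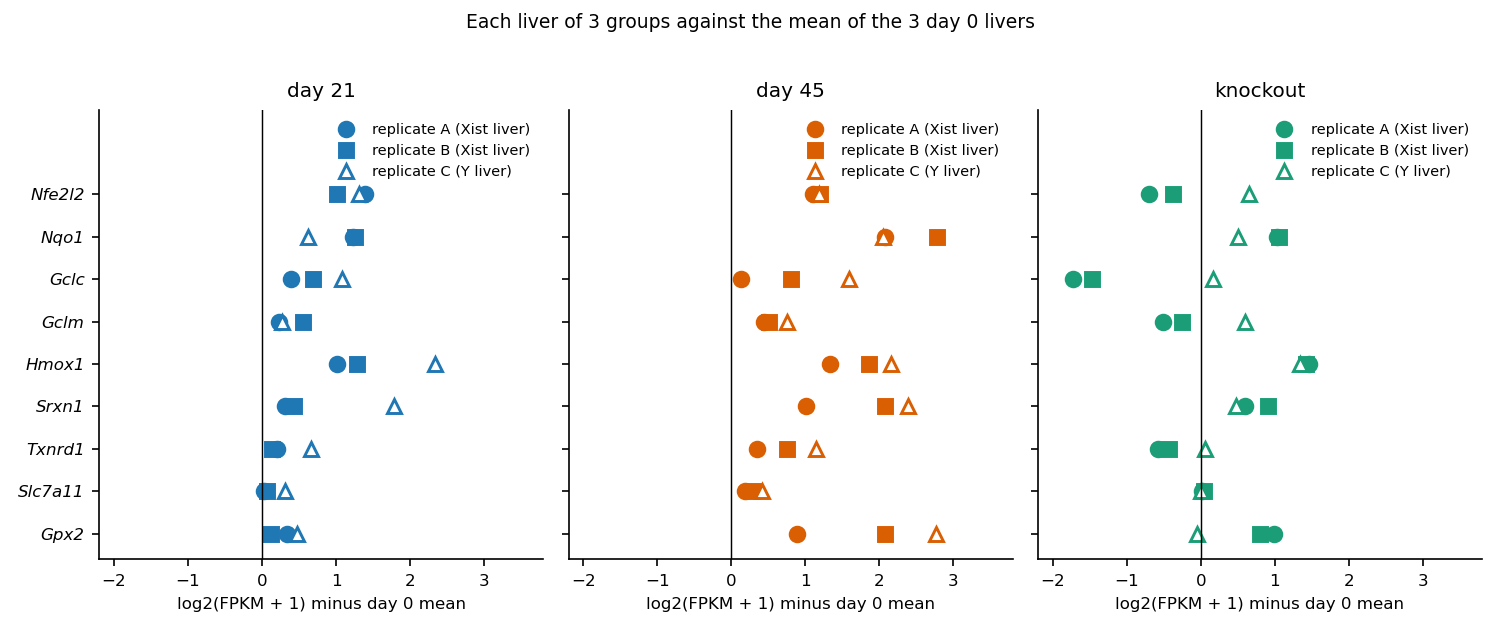
Difference of log2(FPKM + 1) from the mean of the 3 uninjected livers for each liver of day 21, day 45 and the knockout, with filled circles and squares for replicates A and B (Xist) and open triangles for replicate C (Y). In the knockout panel the triangle is to the right of 0 for Nfe2l2, Gclc and Gclm where replicates A and B are to the left, while Hmox1 is between 1.34 and 1.47 in all 3.

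The germline knockout and day 45 differed for 5 of the 8 tested members, in calls that hung on single livers. Hmox1 and Nqo1 were higher than in uninjected livers, the latter with a log2 fold change of 0.86 (SE 0.31, limma adjusted p = 0.0494). The call was lost in 15 of 24 alternative fits, among them without day 0 replicate B (0.50, adjusted p = 0.198) and with the length trend removed (0.60, adjusted p = 0.0882). It was kept with sex as a term (0.86, SE 0.19, limma adjusted p = 0.0061) and in livers with Xist alone (0.68, SE 0.21, limma adjusted p = 0.019). Set directly against day 45, where 9.44% of tested genes were called and 8.23% were called lower, 5 of the 8 tested members were lower in the knockout. They were Gclc (log2 difference -1.85, SE 0.49, limma adjusted p = 0.0398), Nqo1 (-1.44, SE 0.31, limma adjusted p = 0.0199), Gpx2 (-1.33, SE 0.38, limma adjusted p = 0.0479), Nfe2l2 (-1.30, SE 0.28, limma adjusted p = 0.0198) and Txnrd1 (-1.07, SE 0.25, limma adjusted p = 0.0243). For Nfe2l2, Nqo1, Srxn1, Txnrd1 and Slc7a11 all 3 knockout livers were below all 3 of day 45, as they were for 20.6% of all tested genes. Without day 45 replicate B or without knockout replicate B none of the 5 calls held. With only these 2 groups in the fit none held either. With libraries centred on their median 2 held (Nfe2l2 and Nqo1), and over all genes the calls went from 1072, of which 137 were higher, to 405, of which 186 were higher.

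The 3 knockout livers did not behave as 1 group for these genes. Replicates A and B, the ones with fewer long transcripts, held 18.5 and 23.4 FPKM of Nfe2l2, 28.9 and 34.6 of Gclc and 74.4 and 89.5 of Gclm, all below the uninjected range, and replicate C held 48.5, 109.5 and 162. Without replicate C, Nfe2l2 fell by 0.53 (limma adjusted p = 0.0188) and Gclc by 1.60 (limma adjusted p = 0.00568) on the log2 scale against day 0, and with C as the only knockout liver, assumed to vary as the other groups do, they were 0.65 (limma adjusted p = 0.109) and 0.17 (limma adjusted p = 0.898). Gpx2 went the other way, with 1.19 and 0.935 FPKM in A and B and 0.074 in C. Aldoa, a known direct target of miR-122, was at 499.8, 440.2 and 245 FPKM in knockout A, B and C against 62.1 to 73.1 FPKM in uninjected livers. The part of RNA length and of sex, which cannot be told apart among these 3 livers, was not tested.

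Beyond the 9 genes, 7 lists of pathway genes hold 95 further genes in the table, of which 94 were tested. At day 45, 28 of them rose and 2 fell, against 23.7% and 2.99% of all tested genes, with a median log2 fold change of 0.41 beside 0.20 over all. At day 21, 8 rose and 1 fell, beside 6.2% and 1.42% of all tested genes. At days 100 and 200, 26 rose and 3 fell, beside 28.4% and 3.21%, and in the knockout 24 rose and 6 fell, beside 19.3% and 14.5%. The share of 26 among 94 is no higher than that of all tested genes. Single livers weighed on these counts. The calls in both directions went from 9 to 3 at day 21 without day 0 replicate A or B or day 21 replicate C and to 18 without knockout replicate C, from 30 to 17 at day 45 without replicate B of that day, and from 29 to 12 at days 100 and 200 without the day 100 liver. In the knockout they went from 30 to 14 without replicate A or B and to 57 without replicate C. With libraries centred on their median, which takes out the upward shift of all genes, 18 of 22 calls were rises at day 45 and 16 of 23 at days 100 and 200. Over all genes the split went from 2688 rises among 3027 calls to 1644 among 2439 at day 45 and from 3227 among 3592 to 1785 among 2778 at days 100 and 200.

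The detoxification and export list held the largest single changes of the 7 lists at day 45. Of 32 tested, 14 rose at day 45 and none fell (23.7% and 2.99% over all tested genes), with a list median of 0.97, and in the knockout 9 rose and 3 fell (19.3% and 14.5% over all tested genes). Gstm3, a glutathione S-transferase, was at 20.6, 23.7 and 26.1 FPKM in uninjected livers, 172, 598 and 679 at day 45 and 419.8, 314 and 147 in the knockout, with log2 fold changes of 4.09 (SE 0.50, limma adjusted p = 0.000362) and 3.47 (SE 0.50, limma adjusted p = 0.00062). Gsta1 went from 0.046, 0.947 and 0.102 to 4.88, 37.9 and 62.5 FPKM at day 45 (4.22, SE 0.79, limma adjusted p = 0.00253) and Gsta2 from 7.31, 24.7 and 6.77 to 26.8, 102 and 163 (2.71, SE 0.61, limma adjusted p = 0.00608). In these transferases, as in Gclc and Srxn1, day 45 replicate A was the lowest liver. Gsta1 and Gsta2 are near copies of each other, and Gstm3 has close relatives, so fragments may be shared between family members. Gsta1, under 1 FPKM in all uninjected livers, passed the filter only through the other groups, so its call supports nothing by itself.

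In the list of NRF2 control genes, 6 of 13 rose at day 45 and none fell, beside 23.7% and 2.99% of all tested genes. The small MAF partners led it. Maff was at 1.65 to 2.81 FPKM in uninjected livers and at 5.52, 9.93 and 10.9 at day 45 (log2 fold change 1.58, SE 0.51, limma adjusted p = 0.0379). At day 21 it was at 7.60, 16.8 and 22.2 (2.27, SE 0.51, limma adjusted p = 0.0203). It was also up in the knockout (2.36, SE 0.51, limma adjusted p = 0.00598), at 23.4 and 27.7 FPKM in replicates A and B and 5.07 in C. Mafk rose in all 4 comparisons with day 0, by 0.59 to 1.16. Osgin1, an inducible growth inhibitor, rose at day 45 (0.96, SE 0.30, limma adjusted p = 0.0301) and did not pass in the other comparisons with day 0. Keap1, the sensor, was at 16.4 to 19.7 FPKM in uninjected livers and 20.7, 23.6 and 24.0 FPKM at day 45. Its day 45 change of 0.37 (SE 0.19, limma adjusted p = 0.184) was not called, nor was it called in the other comparisons with day 0.

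The glutathione list had 5 rises and no fall among 13 tested at day 45, beside 23.7% and 2.99% of all tested genes. Gpx7, an endoplasmic reticulum peroxidase, rose in every comparison with day 0, by 1.57 at day 21, 2.65 at day 45, 2.85 at days 100 and 200 and 3.26 in the knockout (limma adjusted p 3.85e-05 for the last). Slc1a4, a neutral amino acid transporter, rose by 2.05 at day 45 (SE 0.34, limma adjusted p = 0.00141) and by 1.66 in the knockout (SE 0.34, limma adjusted p = 0.00456). Gpx3, the plasma peroxidase, rose by 1.22 at day 45 (SE 0.41, limma adjusted p = 0.0414) and by 2.48 at days 100 and 200 (SE 0.45, limma adjusted p = 0.00143).

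The day 45 counts in this paragraph stand beside 23.7% of all tested genes called higher and 2.99% called lower. Of 13 thioredoxin and peroxiredoxin genes, 1 rose (Sesn2, a stress-induced sestrin, 1.56, SE 0.18, limma adjusted p = 0.000242) and 1 fell (mitochondrial Txnrd2, by 0.70, limma adjusted p = 0.0317) at day 45. NADPH feeds both the glutathione and the thioredoxin cycle, and 2 of 6 genes that supply it rose at day 45, G6pdx by 1.16 (SE 0.27, limma adjusted p = 0.00734) and Pgd by 1.16 (SE 0.29, limma adjusted p = 0.0105), both of the pentose phosphate pathway. Idh1 fell in the knockout, by 1.68 (SE 0.30, limma adjusted p = 0.00218). Of 6 genes that remove superoxide and peroxide, none rose at day 45 and Sod2 fell by 0.55 (limma adjusted p = 0.0342), and in the knockout Sod2 fell by 0.84 (limma adjusted p = 0.00491) and Sod3 rose by 0.96 (limma adjusted p = 0.0441). Around Hmox1, none of 11 heme and iron genes was called at day 45. The 9 erythroid markers in the table summed to 842, 677.8 and 182 FPKM in knockout A, B and C and to 130 to 166 FPKM in uninjected livers, and their part in the heme and iron values was not tested. In the knockout the ferritin heavy chain Fth1 rose by 0.93 (limma adjusted p = 0.0121), the haptoglobin gene Hp by 0.87 (limma adjusted p = 0.0286), and Fech, the last enzyme of heme synthesis, fell by 0.77 (limma adjusted p = 0.016).

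**Figure D4:**
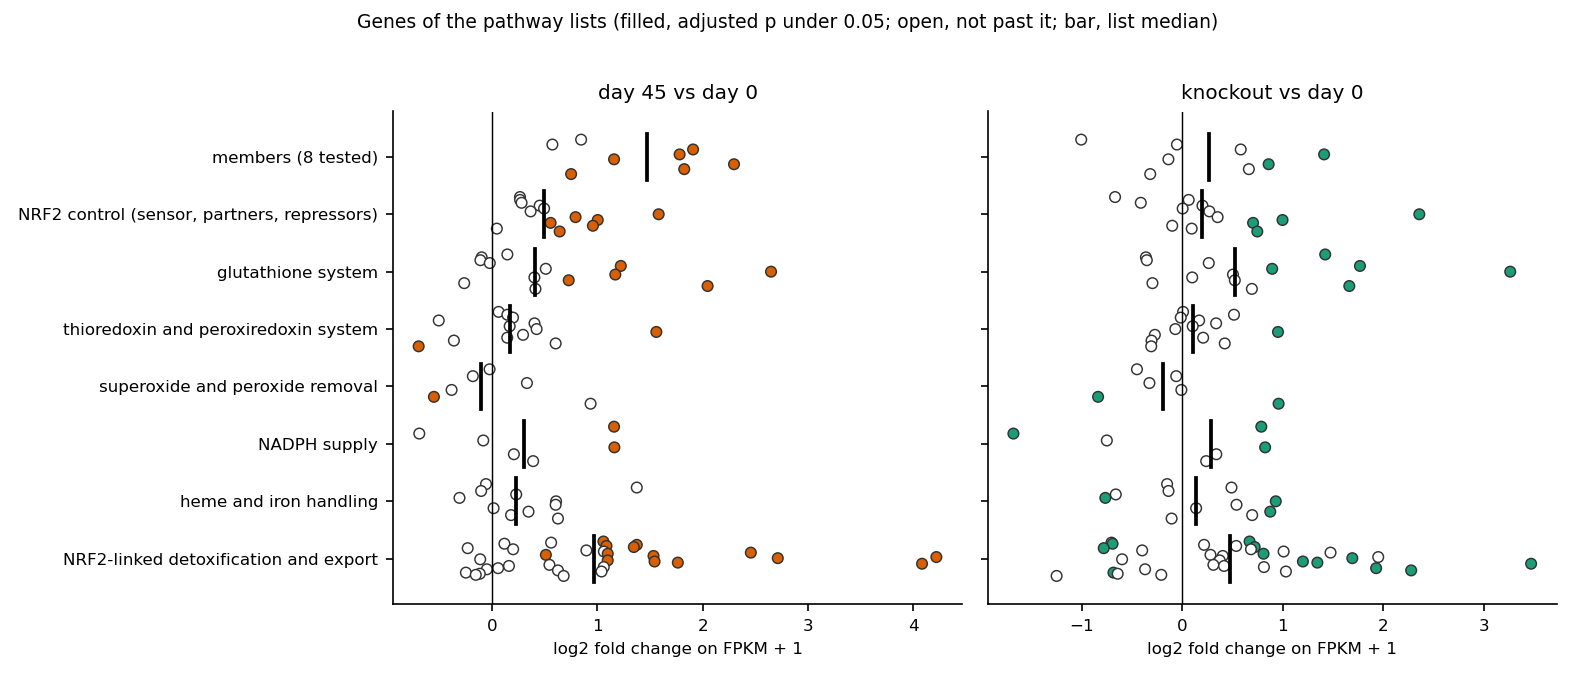
Log2 fold change on FPKM + 1 of every tested gene of the members and of 7 pathway lists, at day 45 (left) and in the knockout (right) against day 0; filled points passed an adjusted p of 0.05 and bars are list medians. The members' median is 1.47 at day 45 and 0.26 in the knockout, and the furthest points at day 45 are Gsta1 at 4.22 and Gstm3 at 4.09.

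Over the 14 livers the 5 other genes whose levels ran most like the mean of the 8 tested members, each centred and scaled, were Ugdh (Pearson r 0.95), Mpp1 (0.95), Tmem140 (0.94), Psrc1 (0.94) and Nhlrc2 (0.94). These correlations describe 14 points that share their groups and carry no test. Ugdh makes the UDP-glucuronic acid used to conjugate drugs and bilirubin, and was at 54.5 to 103 FPKM in uninjected livers, 174, 268 and 402 at day 45 and 67.3, 86.5 and 158 in the knockout. Among the members themselves, Txnrd1 ran closest to the mean of the others (r = 0.87), followed by Srxn1 (0.84), and Gpx2 (0.63) and Gclc (0.64) were the least alike.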

How the data were processed

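RNA-seq of poly-A RNA from 14 livers and small RNA libraries of the floxed livers were used. The authors aligned paired reads to the mm9 genome with TopHat and deposited FPKM from Cufflinks 2.2.1; they normalised libraries by the quartile method and left out ribosomal, snoRNA and mitochondrial sequence. The deposited RPM of microRNAs (Bowtie 0.12.7) carry an added 1, which was removed before the miR-122 share was taken. FPKM hold no counts, so no count model was fitted and intervals cover the spread between livers. The Cuffdiff comparison of the authors needs the reads and was not rerun. The fragments given for a low gene were estimated from the smallest step between values.

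The 224 symbols listed in several rows were summed over them, 0 sample columns were left unmapped, and genes whose mean over 14 livers reached 1 FPKM were tested with limma 3.58.1 in R 4.3.3 (two-sided, eBayes with trend, pseudocount 1). In data simulated for day 45 against day 0 with 200 changed genes among 11354, the fit called 0% of log2 changes of 0.5, 58% of 1 and 94.5% of 2, with 0, 7 and 7 false calls. The members and gene lists were chosen with earlier results of these data known. Named are all members, up to 3 genes of each pathway list with the largest called change from day 0, and the 5 genes most like the members. Keap1, Aldoa, Alb, the sex transcripts and the cell type markers were named for context after their values were seen. Promoters are from RefSeq, in another build than the files. Alternatives were another pseudocount, no filter, centring, the compared groups alone, no trend, each liver left out and a replicate block. Added after the data were seen were sex, livers with Xist, transcript length (annotation of the mm9 build) and knockout replicate C alone. Python 3.11.15 made tables and figures.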

Additional observations from a re-analysis of the deposited data

Results flagged for a closer look

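The germline knockout and the day 45 livers differed for 5 members in the direct contrast of both groups, which tests the difference between their changes from day 0. In this contrast 9.44% of all tested genes were called and 8.23% were called lower. The log2 differences, knockout minus day 45, were -1.853 for Gclc, -1.329 for Gpx2, -1.298 for Nfe2l2, -1.44 for Nqo1 and -1.071 for Txnrd1. Among livers with Xist, in a fit that called 49.5% of all tested genes, they were -2.065, -0.587, -1.679, -1.384 and -1.057. Gpx2 was then not called (limma adjusted p = 0.146). With the transcript length trend removed they were -1.559, -1.404, -1.119, -1.411 and -0.757, and Gclc and Txnrd1 were not called (limma adjusted p = 0.0803 and 0.0752). With knockout replicate C as the one knockout liver they were -0.678, -1.955, -0.511, -1.8 and -0.699, and none was called.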

How the results depend on the processing

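Of the 6 calls among the members at day 45, those of Nqo1, Srxn1, Hmox1 and Nfe2l2 held in all 23 alternatives and that of Txnrd1 was lost in 8. That of Gpx2 also held, but its inclusion rests on the groups where it is high and its stability supports nothing. Low genes limit the fit, since the filter kept Slc7a11 out and a pseudocount of 1 shrinks the changes of Gpx2. The cause of the changes below was not tested.

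The larger moves of the counts of members called are listed, and smaller ones, such as those at day 21 and day 45, are left out. Shares of all tested genes are given for the settings with sex and Xist only. Using only the groups compared gave 5 in place of 3 at days 100 and 200, 1 in place of 2 in the knockout and 0 in place of 5 for the knockout against day 45. No filter gave 1 in the knockout and 3 against day 45, centring gave 2 against day 45, and removing the length trend gave 1 and 3. Knockout replicate C alone gave 0 and 0. Sex as a term gave 5 at days 100 and 200 and 1 for day 45 against day 21, beside 31.4% and 0.572% of all tested genes. Livers with Xist gave 5 at days 100 and 200, 5 in the knockout and 1 for day 45 against day 21. These stand beside 39.6%, 57.4% and 0.555% of all tested genes. Counts of pathway genes moved from 9 to 20 (only the groups compared) and 5 (replicate block) at day 21. They moved from 0 to 1 (no filter) for days 100 and 200 against day 45. In the knockout they moved from 30 to 10 (only the groups compared) and 58 (Xist, beside 57.4% of all tested genes). For the knockout against day 45 they moved from 7 to 3 (centring), 0 (only the groups compared), 4 (replicate block) and 2 (length). There sex gave 16 and Xist 41, beside 16.5% and 49.5% of all tested genes. The share of 41 among 94 is no higher than that of all tested genes.

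Leaving out 1 liver at a time, members called ranged from 0 to 3 at day 21, 5 to 7 at day 45, 2 to 4 at days 100 and 200, 1 to 4 in the knockout, 0 to 2 for day 45 against day 21, 0 to 0 for days 100 and 200 against day 45 and 0 to 6 for the knockout against day 45. Pathway genes ranged from 3 to 18, 17 to 45, 12 to 41, 14 to 57, 0 to 8, 0 to 1 and 3 to 42. Most of the highest counts came without knockout replicate C.

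The replicate block called 2 members at day 21, 6 at day 45, 2 in the knockout (Gclc, at limma adjusted p = 0.0421, in place of Nqo1) and 4 for the knockout against day 45. The letters do not pair the livers, since deviations of same-letter livers correlated from -0.447 to 0.501, with 8 of 18 pairs over 0.1, against 15 of 36 pairs of other letters. No block was run for days 100 and 200, which carry no letter.

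No called member changed sign. Where leaving out 1 liver turned an uncalled value, the far end of its range is given too. Uncalled values that changed sign were, against day 0 in the knockout, Nfe2l2 (0.14 without replicate A, to -0.53 without C, 0.65 with C alone), Gclc (0.17, C alone), Gclm (0.18 without A, 0.043 without B, to -0.38 without C, 0.024 length, 0.60 C alone), Txnrd1 (0.051, C alone) and Gpx2 (-0.047, C alone). At days 100 and 200 against day 0 they were Gclc (-0.32 centred, -0.42 length, -0.35 without day 0 replicate A, to 0.27 without B, -0.19 without day 100), Gclm (-0.004, length) and Txnrd1 (-0.085, length). Between day 45 and day 21 they were Gclc (-0.05 centred, -0.055 length, -0.069 Xist, -0.039 without day 21 replicate A, -0.25 without day 45 replicate C, to 0.48 without A) and Hmox1 (-0.007 length, -0.029 without day 21 replicate A, to 0.63 without C). The others were Gclm (0.14 without day 200, to -0.41 without day 100) and Gpx2 (-0.31 without day 45 replicate A, to 0.63 without C) for days 100 and 200 against day 45, and Gclm (0.028, C alone) for the knockout against day 45.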
